A study of Mus musculus with 10 samples.

Results

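The mRNA levels of 10 mitochondrial chaperones and proteases were measured in mouse small cell lung cancer cells with and without stiripentol. The genes are Hspa9, Dnaja3, Hspd1, Hspe1, Trap1, Lonp1, Clpp, Clpx, Afg3l2 and Htra2, listed as targets of the mitochondrial unfolded protein response and found by their symbols, each with 1 row among the 26335 rows of the deposited table. All 10 passed the filter on low values, which left 12306 genes tested. The cells were mSCLC-2405, a line from a primary lung tumour of a genetically engineered mouse model in which Cre from an adenovirus given into the airways deletes tumour suppressor genes, Rb1 among them. Both groups share this background and stand for 1 line, cultured from dissociated tumour tissue. The 5 control libraries are labelled control, and the treatment notes name DMSO, the solvent, as the counterpart of the drug. The 5 stiripentol libraries came from cells given stiripentol, an antiseizure medicine that the study examined as an inhibitor of respiratory complex I. The exposure was 48 h in the sample labels, and the dose for this line was 250 μM in the study's methods. The methods define n over all experiments as independent samples, in terms of mice, and neither they nor the labels say whether the libraries of this cell line came from separate cultures, so p-values measure the spread between these libraries, which may be technical.

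Most mitochondrial proteins are made in the cytosol and enter the organelle unfolded. Inside, a motor of the HSP70 family pulls them in, a barrel-shaped chaperonin folds them, and proteases driven by ATP or acting at the inner membrane remove those that fail to fold or that are damaged. When unfolded protein accumulates in the matrix, cells raise the mRNA of these chaperones and proteases, which is called the mitochondrial unfolded protein response; in mammals the transcription factors ATF4, CHOP and ATF5 are known to take part.

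Levels are given as log2 CPM, the log2 of the reads of a gene scaled to the size of its library, with a small prior added by the authors before the logarithm. CPM is not scaled to gene length, so levels were compared between libraries and not between genes. The libraries held 22375625 to 65299372 reads in control (median 63607057) and 55015760 to 60670901 in stiripentol (median 57977596), with control 5 the smallest, and a member had 865 to 148329 reads in a library. Each group was clustered on its own and cut into 2 clusters, a trio and a pair. The trio holds controls 1 to 3 and stiripentol 3 to 5, and the pair controls 4 and 5 and stiripentol 1 and 2. The clusters were matched between the groups by their size alone, and whether matched clusters share an origin was not tested. Across genes, libraries of the same group and cluster correlated at 0.983 to 0.997, and libraries of the same group in different clusters at 0.920 to 0.939. Libraries of different groups correlated at 0.840 to 0.938, a range that overlaps the latter. The labels do not name what separates the clusters, so changes of the 10 genes are also given within the trio and within the pair. Of 8 markers of neuroendocrine and small cell lung cancer cells, 5 were in the table, and only Ncam1 was abundant, so that their summed level was 93.4 to 120 CPM in control and 127 to 157 CPM in stiripentol; Syp had at most 20 reads in a library and Insm1 at most 10, and 3 of the 8 were not analysed here. The summed level of 7 fibroblast markers was 404 to 696 CPM in control and 152 to 185 CPM in stiripentol. Of the 6 that passed the filter, 4 were called lower and 0 higher, beside 14.1% and 13.6% of all genes tested. Of the neuroendocrine markers 2 passed the filter, with 1 called higher and 0 lower. In the controls the fibroblast sum was 635 to 696 CPM in the trio and 404 to 523 CPM in the pair, and Lum had at most 3 reads in any library. The 3 leukocyte markers analysed, of 5 listed, summed to 0.613 to 2.77 CPM in control and 0.577 to 3.74 CPM in stiripentol. Endothelial markers summed to 0.251 to 0.638 CPM and 0.276 to 1.07 CPM, and Epcam, the epithelial marker analysed, had at most 0.0447 CPM. The part of these marker differences in the results on the chaperones and proteases was not tested.

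With stiripentol, 6 of the 10 genes rose and none was called lower. The largest rises were in Hspa9, the motor that pulls proteins into the matrix (2.38-fold), in Lonp1, the main ATP-driven protease of the matrix (2.17-fold), and in Dnaja3, a co-chaperone of the motor (2.06-fold). Hspe1, the lid of the chaperonin, rose by 0.59 on the log2 scale, Clpp, the peptidase chamber of the ClpXP protease, by 0.45, and Trap1, a mitochondrial HSP90, by 0.31. The chaperonin Hspd1, the unfoldase Clpx, the inner membrane protease Afg3l2 and the intermembrane space protease Htra2 did not pass the test. Calls were made by limma where the adjusted p was under 0.05, with Benjamini-Hochberg adjustment over the 12306 genes, of which 13.6% were called higher and 14.1% lower. The 0 members called lower were also 0 at an unadjusted p under 0.05, both in limma and in limma voom. The log2 change was positive for 9 of the 10, and their median was 0.45, where the median of all genes tested was -0.056. That median was 0.046 after quantile normalization and 0.020 after median-of-ratios scaling, and the same count of 6 members was called higher under each. For 6 members every stiripentol library lay above every control, a pattern seen in 13.0% of genes tested, and for 0 members every one lay below, a pattern seen in 14.3%. In bulk RNA, a change in the number of cells that express a gene and a change in RNA per cell cannot be told apart. When each group and cluster was reduced to 1 mean, so that 2 values stood against 2, limma called 0 of all genes and 0 of the 10 members, with 1116 genes and 3 members at an unadjusted p under 0.05.

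**Figure D1:**
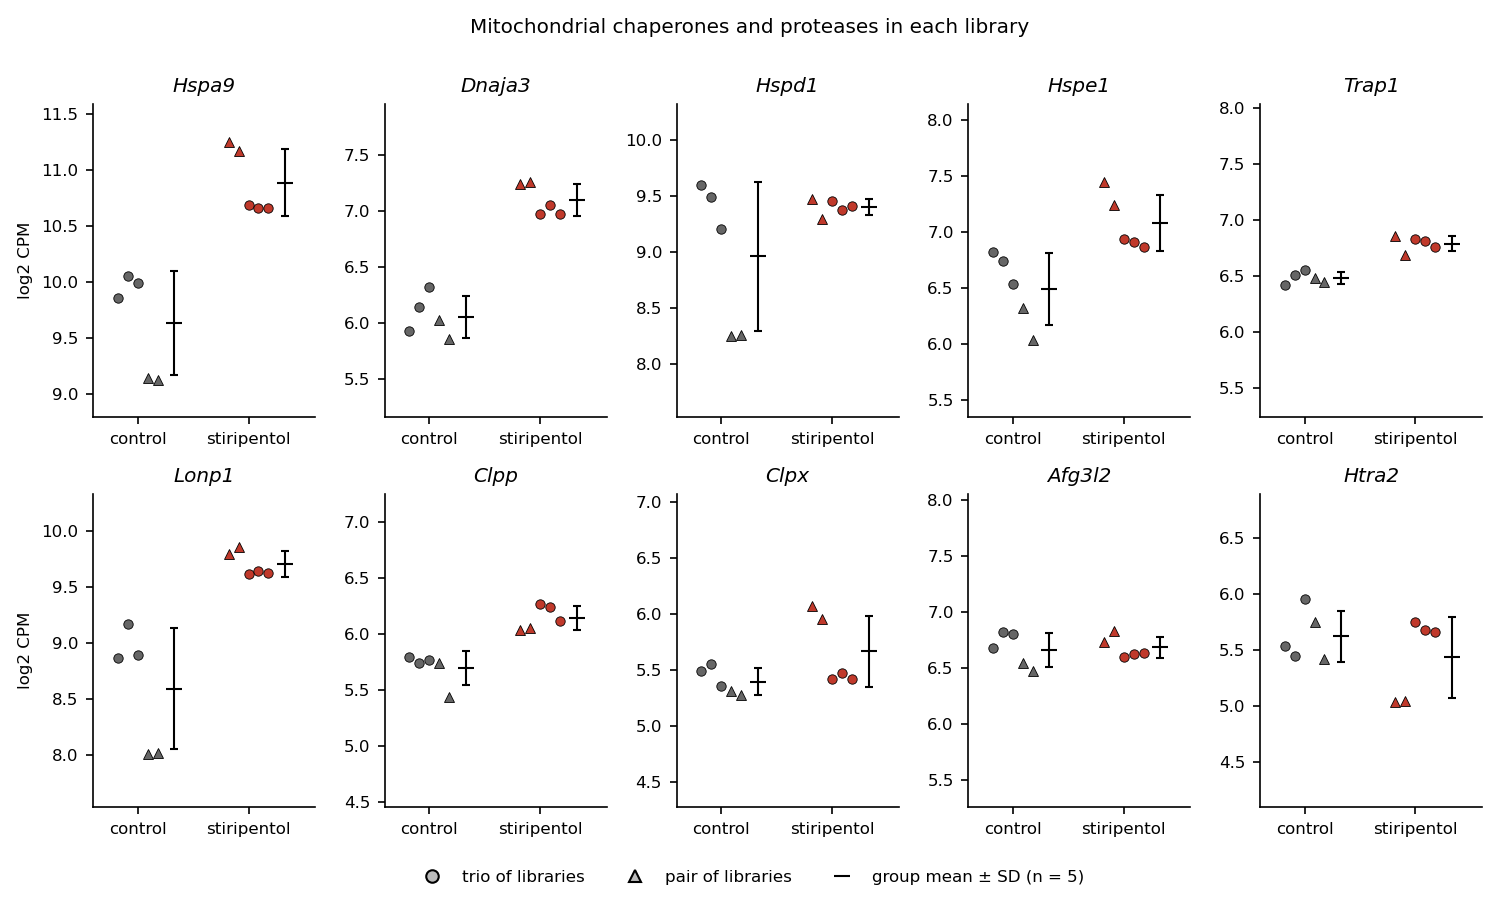
Level of each of the 10 genes in log2 CPM by library, with control libraries in grey, stiripentol libraries in red, circles for the trio, triangles for the pair, and bars for the group mean ± SD (n = 5); every panel spans the same number of log2 units. The stiripentol libraries lie above all controls for Hspa9, Dnaja3, Hspe1, Trap1, Lonp1 and Clpp, and the control triangles lie below the control circles for Hspa9, Hspd1, Hspe1, Lonp1, Clpx and Afg3l2.

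Hspa9 and its co-chaperone Dnaja3 both rose, though in the pair Hspa9 rose more. Hspa9 (mortalin) is the ATP-driven chaperone at the inner face of the import channel, and the gene spans 34937414 to 34954357 on the minus strand of chromosome 18 (GRCm38). Its level was 9.86, 10.06, 9.99, 9.14 and 9.13 log2 CPM in controls 1 to 5, and 11.26, 11.17, 10.69, 10.67 and 10.67 in stiripentol libraries 1 to 5. The groups did not overlap, and the pair of libraries held both the lowest controls and the highest treated values. The mean went from 9.64 ± 0.46 to 10.89 ± 0.30 log2 CPM (SD, n = 5), a log2 change of 1.25 with a standard error of 0.23 (adjusted p = 0.00312). The change was 0.70 in the trio and 2.08 in the pair, and it passed the test in each (adjusted p = 0.000135 and 2.83e-08). The deposited row of its pseudogene Hspa9-ps1 held 14 reads over the controls and 37 over the stiripentol libraries.

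Dnaja3 (Tid1) is a J-domain protein that stimulates the ATP use of mitochondrial HSP70 and hands it unfolded clients. It is on chromosome 16, at 4639989 to 4707695 on the plus strand. Controls 1 to 5 had 5.93, 6.14, 6.32, 6.02 and 5.85 log2 CPM, and stiripentol libraries 1 to 5 had 7.24, 7.25, 6.97, 7.05 and 6.97. Every treated library exceeded the highest control, and in contrast to Hspa9 the control trio and control pair overlapped. The mean was 6.05 ± 0.18 in control and 7.10 ± 0.14 in stiripentol, a log2 change of 1.04 with a standard error of 0.12 and the smallest adjusted p of the 10 genes in limma (0.000298). Within clusters the log2 change was 0.87 in the trio (adjusted p = 0.000221) and 1.31 in the pair (adjusted p = 1.25e-06). Exons of Dnaja3 overlap those of Vasn by 160 bp on the same strand and of Coro7 by 153 bp on the opposite strand. Vasn held 32550 reads over the controls against 18551 for Dnaja3, and its log2 change was -0.95 (adjusted p = 0.00271). For Coro7 the change was 0.017 (adjusted p = 0.951). How the counting used strand and shared exons is not given in the sources used here, so reads from the overlapping stretches cannot be told apart.

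The chaperonin genes are neighbours. HSPD1 (HSP60) forms the barrel in which matrix proteins fold, and HSPE1 (HSP10) is the lid that closes it. Hspd1 is on chromosome 1 at 55077835 to 55088243 on the minus strand and Hspe1 at 55088132 to 55091307 on the plus strand, head to head, with RefSeq starts 216 bp apart and 112 bp of overlapping exon. The stretch between the starts that holds the heat shock elements of both genes is shown because a single run of bases lies upstream of each. It is chr1:55088053-55088082 on the plus strand of GRCm38.p6 (RefSeq), the capitals mark the elements, and all of it lies inside an alternative, longer first exon of Hspd1 in GENCODE M21.
Hspd1 and Hspe1: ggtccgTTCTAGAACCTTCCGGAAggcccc
The elements are TTCNNGAA, with matches that begin at -89 and -79 relative to the RefSeq start of Hspe1, and GAANNTTC, which begins at -84 and shares bases with both of the others. Of 32851 RefSeq promoter windows of the same length (both strands searched), 8.52% held TTCNNGAA and 7.86% held GAANNTTC. These matches describe the letters only.

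Of these neighbours, Hspe1 passed the test over all libraries and Hspd1 did not. Hspd1 had 9.60, 9.50, 9.21, 8.25 and 8.26 log2 CPM in controls 1 to 5, and 9.48, 9.30, 9.46, 9.38 and 9.42 in stiripentol libraries 1 to 5. The treated libraries lay inside the range of the control trio, and both controls of the pair stood far lower. The mean was 8.96 ± 0.66 in control and 9.41 ± 0.071 in stiripentol (log2 change 0.44, 95% interval -0.15 to 1.03, adjusted p = 0.227). The change was -0.019 in the trio (adjusted p = 0.879) and 1.14 in the pair (adjusted p = 1.97e-06). Hspd1 therefore passed the test only within the pair, where the control level was 1.18 log2 units below that of the control trio. The row of its pseudogene Hspd1-ps3 held 1596 reads over the controls and 2529 over the stiripentol libraries, and copies of Hspd1 with at least 95% identity over 100 nucleotides amounted to 1.16% of its reads.

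Hspe1 had 6.82, 6.74, 6.54, 6.32 and 6.04 log2 CPM in controls 1 to 5, and 7.45, 7.24, 6.94, 6.92 and 6.87 in stiripentol libraries 1 to 5. The groups did not overlap, but the lowest treated library and the highest control lay close together, and both came from the trio. The mean rose from 6.49 ± 0.32 to 7.08 ± 0.25 log2 CPM, a log2 change of 0.59 with a standard error of 0.17 (adjusted p = 0.0286). Within the trio the change was 0.21 and did not pass the test (adjusted p = 0.0526), while in the pair it was 1.16 (adjusted p = 9.17e-06). The call over all libraries was lost on leaving out control 3, control 4, control 5, stiripentol 1 or stiripentol 2 (adjusted p = 0.0533, 0.0552, 0.0513, 0.0600 and 0.0673). Its pseudogenes Hspe1-ps2 and Hspe1-ps3 held 1 and 8 reads over the controls and 2 and 1 over the stiripentol libraries.

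Trap1 rose to the same measured extent in both clusters. The gene, at 4039971 to 4077827 on the minus strand of chromosome 16, encodes the mitochondrial member of the HSP90 family, which stabilizes client proteins and is known for its roles in tumour metabolism. Controls 1 to 5 had 6.41, 6.50, 6.55, 6.48 and 6.45 log2 CPM, and stiripentol libraries 1 to 5 had 6.86, 6.68, 6.83, 6.81 and 6.76. Each group was narrow and the groups did not overlap. The mean was 6.48 ± 0.052 in control and 6.79 ± 0.068 in stiripentol, and the log2 change was 0.31 with a standard error of 0.081 (adjusted p = 0.0187). It was 0.31 in the trio (adjusted p = 0.00279) and 0.31 in the pair (adjusted p = 0.0241). Its exons overlap those of Dnase1 by 54 bp on the opposite strand, and Dnase1 held 442 reads over the controls against 24418 for Trap1.

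Lonp1, the ATP-driven protease that degrades damaged and surplus matrix proteins and binds mitochondrial DNA, rose most among the proteases. It is on chromosome 17 at 56614297 to 56626887 on the minus strand. Its level was 8.86, 9.17, 8.89, 8.00 and 8.02 log2 CPM in controls 1 to 5, and 9.80, 9.86, 9.61, 9.64 and 9.62 in stiripentol libraries 1 to 5. All treated libraries were above all controls, the treated libraries were close to one another, and the control pair stood well below the control trio. The mean was 8.59 ± 0.54 in control and 9.71 ± 0.11 in stiripentol, a log2 change of 1.12 with a standard error of 0.22 (adjusted p = 0.00544). The change passed the test in both clusters, at 0.65 in the trio (adjusted p = 0.000556) and 1.81 in the pair (adjusted p = 6.70e-08). Between clusters, the controls of the pair were 0.96 log2 units below those of the trio, and the stiripentol libraries of the pair were 0.20 above.

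The ClpXP protease is made of a peptidase chamber, CLPP, and a ring, CLPX, that unfolds proteins and feeds them into the chamber. Clpp, on chromosome 17 at 56990305 to 56996188 on the plus strand, had 5.79, 5.74, 5.76, 5.74 and 5.43 log2 CPM in controls 1 to 5, and 6.03, 6.05, 6.27, 6.24 and 6.11 in stiripentol libraries 1 to 5. The groups did not overlap, and control 5, the library with the fewest reads, was the lowest. The mean was 5.69 ± 0.15 in control and 6.14 ± 0.11 in stiripentol, a log2 change of 0.45 with a standard error of 0.11 (adjusted p = 0.0121), and 0.38 without control 5 (adjusted p = 0.0209). The change was 0.44 in the trio (adjusted p = 0.000673) and 0.46 in the pair (adjusted p = 0.00665). Clpx, on chromosome 9 at 65294260 to 65330658 on the plus strand, had 5.49, 5.55, 5.35, 5.32 and 5.27 log2 CPM in controls 1 to 5, and 6.07, 5.96, 5.42, 5.47 and 5.42 in stiripentol libraries 1 to 5. Only stiripentol 1 and 2 stood above the controls, and the other treated libraries lay within the range of the control trio. The mean was 5.40 ± 0.12 in control and 5.67 ± 0.32 in stiripentol (log2 change 0.27, 95% interval -0.073 to 0.61, adjusted p = 0.209). The change was -0.027 in the trio (adjusted p = 0.752) and 0.72 in the pair (adjusted p = 0.000150).

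Neither of the membrane-associated proteases was called over all libraries. Afg3l2, an ATP-driven protease of the inner membrane that works with SPG7 and faces the matrix, is on chromosome 18 at 67404764 to 67449172 on the minus strand. It had 6.68, 6.82, 6.80, 6.54 and 6.48 log2 CPM in controls 1 to 5, and 6.73, 6.83, 6.60, 6.63 and 6.63 in stiripentol libraries 1 to 5. The groups overlapped almost fully. The log2 change was 0.021, with a 95% interval of -0.20 to 0.24 (adjusted p = 0.892). Within the trio it was -0.15 (adjusted p = 0.0630) and within the pair 0.27 (adjusted p = 0.0353).

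Htra2 (Omi), a serine protease of the intermembrane space that can bind inhibitors of apoptosis once released, is on chromosome 6 at 83051266 to 83055273 on the minus strand. Controls 1 to 5 had 5.53, 5.45, 5.95, 5.75 and 5.42 log2 CPM, and stiripentol libraries 1 to 5 had 5.04, 5.05, 5.75, 5.68 and 5.66. The pair of treated libraries stood below every control, and the treated trio lay within the control range. The log2 change was -0.19, with a 95% interval of -0.59 to 0.22 (adjusted p = 0.464). Within the trio it was 0.053 (adjusted p = 0.728), and within the pair Htra2 fell, with a log2 change of -0.54 (adjusted p = 0.00320). Its exons overlap those of Aup1 by 753 bp and of Loxl3 by 535 bp, both on the opposite strand. Aup1 held 35518 reads over the controls against 13877 for Htra2 and had a log2 change of 0.73 (adjusted p = 0.00274), and that of Loxl3 was -0.93 (adjusted p = 0.0148).

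The size of the change differed between the clusters for most of the genes. In the trio alone, 5 of the 10 genes were called higher and 0 lower, where 37.7% of all genes tested were called higher and 27.0% lower. In the pair alone, 9 were called higher and 1, Htra2, lower, where 25.7% of all genes were called higher and 46.5% lower. Hspa9, Dnaja3, Trap1, Lonp1 and Clpp were the 5 called higher in both, and the share of all genes called higher in both was not determined. The median log2 change of the 10 genes was 0.26 in the trio and 0.93 in the pair, beside medians over all genes of 0.084 and -0.25. In limma with a term for the difference of effect between clusters, 8 of the 10 genes passed, beside 63.3% of all genes tested. For 7 of these 8 the change was more positive in the pair, and the share of all genes with that direction was not determined. That difference, pair minus trio on the log2 scale, was 1.37 for Hspa9 (adjusted p = 2.23e-06), 1.16 for Lonp1 (adjusted p = 2.09e-05), 1.16 for Hspd1 (adjusted p = 6.44e-05) and 0.96 for Hspe1 (adjusted p = 0.000287). It was 0.74 for Clpx (adjusted p = 0.000239), 0.44 for Dnaja3 (adjusted p = 0.0242) and 0.42 for Afg3l2 (adjusted p = 0.00478). For Htra2 the difference ran the other way, at -0.60 (adjusted p = 0.0224). Clpp and Trap1 did not pass, with differences of 0.017 (adjusted p = 0.920) and -0.0035 (adjusted p = 0.980). The clusters were drawn from the levels of all genes tested, these 10 included, so the tests between clusters are not independent of how they were drawn. Each within-cluster change also rests on the match of control and stiripentol clusters by size. The value of a gene without reads was -4.82 log2 CPM in the controls of the trio and -4.74 in its stiripentol libraries. In the pair it was -4.74 in both groups. The part of this difference in the changes was not tested.

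**Figure D2:**
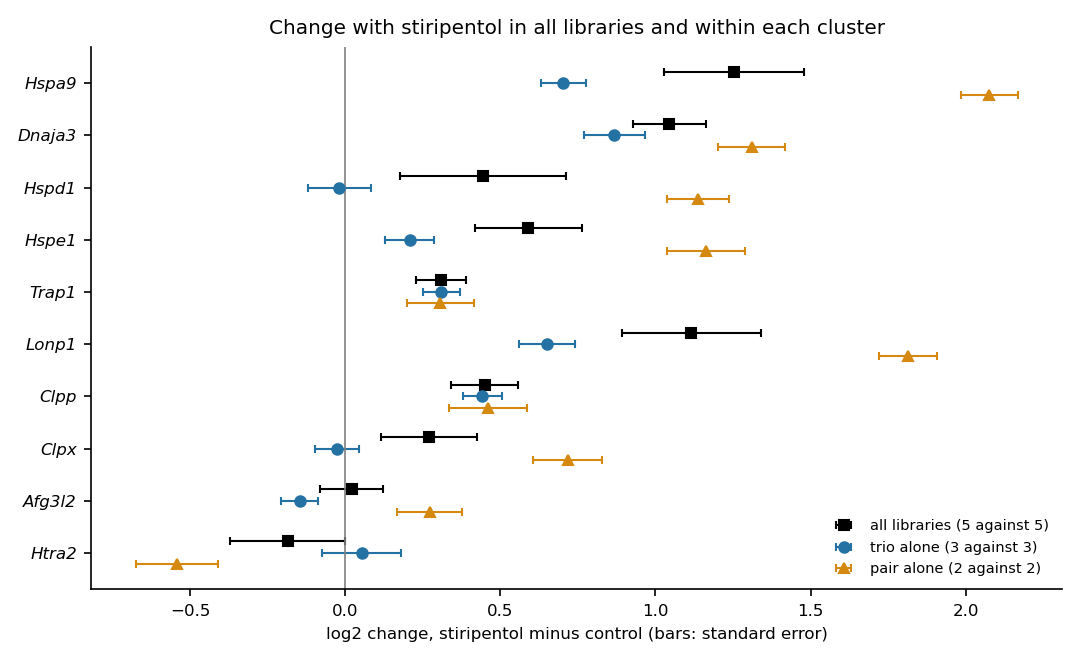
Log2 change with stiripentol for each gene in all libraries (black squares), in the trio alone (blue circles) and in the pair alone (orange triangles), with bars for the standard error. For Hspa9 the 3 values are 1.25, 0.70 and 2.08, and for Trap1 they coincide at 0.31.

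The difference between clusters lay on the control side for some genes and on the treated side for others. Among controls, the pair was lower than the trio by 1.18 log2 units for Hspd1, 0.96 for Lonp1, 0.83 for Hspa9 and 0.52 for Hspe1. Among stiripentol libraries, the pair stood higher by 0.58 for Clpx, 0.54 for Hspa9, 0.44 for Hspe1 and 0.20 for Lonp1, was -0.028 from the trio for Hspd1, and was -0.66 from it for Htra2. Hspa9 and Hspe1 thus differed on both sides, Hspd1 on the control side, and Clpx and Htra2 mainly on the treated side. These differences within a group are descriptions, with no test, since the clusters were drawn from the same values.

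Genes whose proteins work as partners were compared within each library. The difference Hspe1 minus Hspd1 was -2.47 ± 0.38 log2 CPM in control and -2.32 ± 0.26 in stiripentol (SD, n = 5). It shifted by 0.23 with stiripentol in the trio and by 0.026 in the pair, so that the lid and the barrel kept nearly the same ratio in the pair while both rose there. The difference Clpx minus Clpp was -0.30 ± 0.12 in control and -0.48 ± 0.41 in stiripentol. It shifted by -0.47 in the trio and by 0.26 in the pair, in opposite directions. The difference Dnaja3 minus Hspa9 was -3.59 ± 0.37 in control and -3.79 ± 0.17 in stiripentol, with a shift of 0.16 in the trio and -0.77 in the pair. These ratios were not tested, and their level also depends on gene length.

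**Figure D3:**
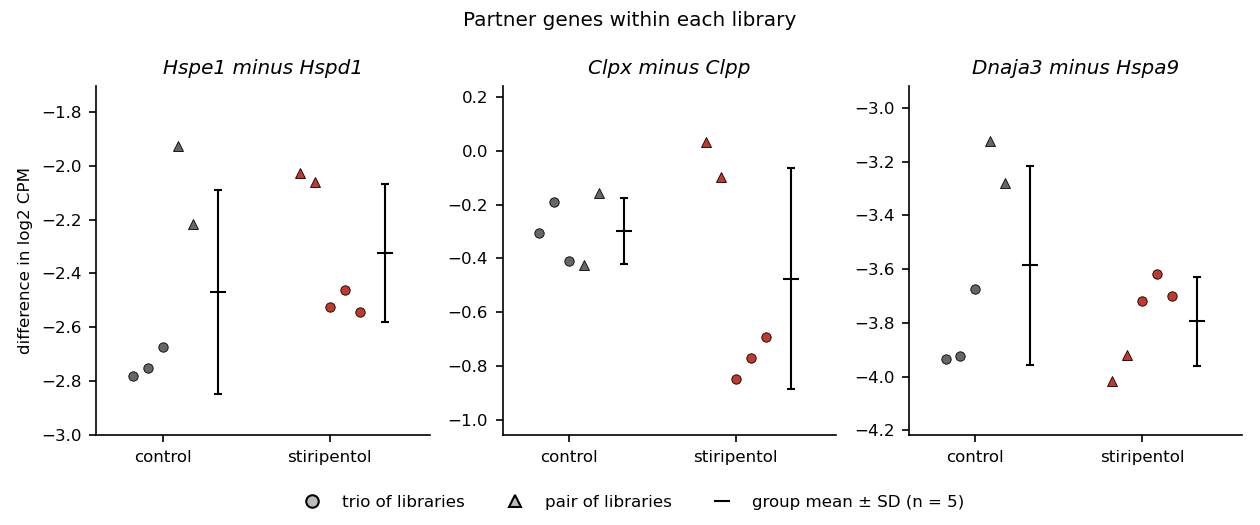
Difference in log2 CPM between partner genes in each library, with grey for control, red for stiripentol, circles for the trio, triangles for the pair, and bars for the group mean ± SD (n = 5). For Clpx minus Clpp the treated trio lies below every control, with a mean of -0.77, and the treated pair lies near 0, with a mean of -0.033.

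For Hspd1, Lonp1 and Clpp, the tested genes with the most similar profile were sought by the mean absolute difference of log2 CPM over the 10 libraries, each gene centred on its own mean. The closest to Hspd1 were Racgap1 (0.0643 log2 units), Cks2 (0.0816) and Kif23 (0.0833), beside a range of 1.35 for Hspd1 itself. The closest to Lonp1, whose range was 1.85, were Arpc5l (0.0752), Tma16 (0.0850) and Gpt2 (0.0889). The closest to Clpp, whose range was 0.836, were Edf1 (0.0492), Mrpl4 (0.0535) and Ndufb9 (0.0555). The lists shared no gene.

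Promoter windows from RefSeq (GRCm38.p6) were found for 7 of the 10 genes. A run of 100 bases upstream of the start is shown for Lonp1, which had the largest rise among these 7, and for Trap1, which had the only cAMP response element. The Lonp1 run is chr17:56626904-56627003 and the Trap1 run chr16:4077828-4077927, both on the minus strand, and the capitals mark the element. Each run ends just before the RefSeq or the GENCODE start, whichever lies farther upstream, which is the RefSeq start for Lonp1 and the GENCODE start for Trap1.
Lonp1: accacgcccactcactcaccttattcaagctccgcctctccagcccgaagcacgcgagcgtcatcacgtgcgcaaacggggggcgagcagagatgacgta
Trap1: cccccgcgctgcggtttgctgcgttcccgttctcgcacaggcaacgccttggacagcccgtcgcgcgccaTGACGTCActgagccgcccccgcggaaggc
The element TGACGTCA began at -47 relative to the RefSeq start of Trap1, which lies within the GENCODE gene, beyond the end of the printed run, and 1.79% of the 32851 windows held it. The letters TGATGNAA, a site of the kind bound by CHOP with ATF partners, were in 3.97% of all windows and in those of 0 of the 7 genes. Clpp held TTCNNGAA from 34 bases after its start. Lonp1 held none of the letters searched, which says only that they are not in this window.

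Of 28 other genes for mitochondrial chaperones and proteases, all passed the filter, 6 rose, 1 fell and 21 were not called, where 13.6% of all genes tested rose and 14.1% fell, and their median log2 change was 0.17. The largest rise was in Hscb, a co-chaperone of iron-sulfur cluster assembly, with 2.93, 3.01, 3.88, 4.11 and 3.87 log2 CPM in controls 1 to 5 and 5.45, 5.37, 4.91, 4.90 and 4.86 in stiripentol libraries 1 to 5. The groups did not overlap, and the log2 change was 1.54 with a standard error of 0.26 (adjusted p = 0.00233). Clpb, a disaggregase of the intermembrane space, rose by 1.02 (standard error 0.19, adjusted p = 0.00410), and Parl, a rhomboid protease of the inner membrane, by 0.63 (standard error 0.12, adjusted p = 0.00390). Afg1l, an inner membrane ATPase, rose by 0.56 (standard error 0.18, adjusted p = 0.0388). The other rises were in Bcs1l, a chaperone of complex III assembly, and Pitrm1, a peptidase that clears presequences. Spg7, the partner of Afg3l2, fell, and its log2 change was -0.33 (standard error 0.10, adjusted p = 0.0343). In the trio the log2 change was 1.62 for Hscb, 0.84 for Clpb, 0.52 for Parl, 0.62 for Afg1l and -0.21 for Spg7. In the pair it was 1.42, 1.29, 0.78, 0.47 and -0.51 in the same order. All 5 passed in each cluster, but they were named for their call over all libraries, of which the clusters are parts. Their results within clusters are therefore not independent of that call. Of the 28 genes, 12 were called higher and 5 lower in the trio, beside 37.7% and 27.0% of all genes, and 14 and 6 in the pair, beside 25.7% and 46.5%. The Afg1l call was lost on leaving out any 1 of controls 1 to 3 or stiripentol 1 to 4 (adjusted p up to 0.0912), and the Spg7 call on leaving out any 1 of controls 1, 2, 4 and 5 or stiripentol 1 to 4 (up to 0.0709) and under median-of-ratios scaling or quantile normalization (0.0593 in the latter).

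Of 12 regulators linked to the mitochondrial unfolded protein response or to its signal, 5 rose, 1 fell and 6 were not called, and their median log2 change was 0.16. The shares of all genes tested that rose and fell were 13.6% and 14.1%. Atf4, the transcription factor of the integrated stress response, had 9.04, 9.28, 8.92, 8.71 and 8.62 log2 CPM in controls 1 to 5 and 10.24, 10.22, 9.83, 9.87 and 9.83 in stiripentol libraries 1 to 5, with no overlap. It rose by 1.08 on the log2 scale (standard error 0.15, adjusted p = 0.000819). Ddit3, which encodes CHOP, rose by 1.95 (standard error 0.17, adjusted p = 9.64e-05), from 5.45 ± 0.39 to 7.39 ± 0.091 log2 CPM. Trib3, a pseudokinase induced by both of them, rose by 1.17 (adjusted p = 0.00546), Sirt3, the main mitochondrial deacetylase, by 0.72 (adjusted p = 0.0256), and Hsf1, the heat shock transcription factor, by 0.37 (adjusted p = 0.0109). Atf5, by contrast, fell, with a log2 change of -0.86 (standard error 0.24, adjusted p = 0.0237). It had 7.85, 8.16, 7.23, 6.98 and 6.77 log2 CPM in controls 1 to 5 and 6.49, 6.62, 6.46, 6.57 and 6.56 in stiripentol libraries 1 to 5. All treated libraries lay below all controls and close to one another, and the controls spread widely, highest in controls 1 and 2. These 6 genes were also called in the same direction in each cluster. The clusters are parts of the same libraries, so these calls are not independent of those over all libraries. The share of all genes called over all libraries that were also called in each cluster was not determined. The log2 change in the trio and in the pair was 0.77 and 1.56 for Atf4, 1.91 and 2.00 for Ddit3, 0.97 and 1.48 for Trib3, 0.89 and 0.45 for Sirt3, 0.31 and 0.48 for Hsf1, and -1.22 and -0.32 for Atf5. Atf5 was not called without control 1 (adjusted p = 0.0576), and Sirt3 was not called without control 1, 2 or 3 or stiripentol 1 or 2 (adjusted p = 0.0615, 0.0623, 0.0519, 0.0525 and 0.0592). With the replicate number as a block in limma, Sirt3 and Hsf1 were not called (adjusted p = 0.0826 and 0.0507).

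Among the regulators not called, the log2 change was 0.77 for Dele1, the mitochondrial signal to the integrated stress response (adjusted p = 0.0693), and -0.57 for Cebpb, a partner of CHOP (adjusted p = 0.0524). Dele1 was called higher in each cluster, by 0.49 in the trio (adjusted p = 0.000678) and 1.19 in the pair (adjusted p = 1.77e-06), and passed with a term for the cluster (adjusted p = 0.000966) and without stiripentol 5 (0.91, adjusted p = 0.0450). Cebpb was called lower in the trio (-0.79, adjusted p = 0.000300) and not in the pair (-0.24, adjusted p = 0.431), and passed with a term for the cluster (adjusted p = 0.0371), without control 5 (-0.75, adjusted p = 0.00541) and in limma voom (-0.60, adjusted p = 0.0391). The change was -0.16 for Eif2ak1, the kinase that DELE1 activates (adjusted p = 0.260), -0.062 for Ubl5 (adjusted p = 0.714), -0.14 for Foxo3 (adjusted p = 0.653) and -0.18 for Nfe2l2, which encodes NRF2 (adjusted p = 0.339). Foxo3, a forkhead transcription factor, was called in opposite directions in the clusters, at 0.33 in the trio (adjusted p = 0.00899) and -0.84 in the pair (adjusted p = 0.000819), and the difference between them passed the test (adjusted p = 0.000588). Eif2ak1 was called lower in the trio (-0.22, adjusted p = 0.0400). In the trio 7 of the 12 regulators were called higher and 3 lower, beside 37.7% and 27.0% of all genes, and in the pair 6 and 2, beside 25.7% and 46.5%.

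**Figure D4:**
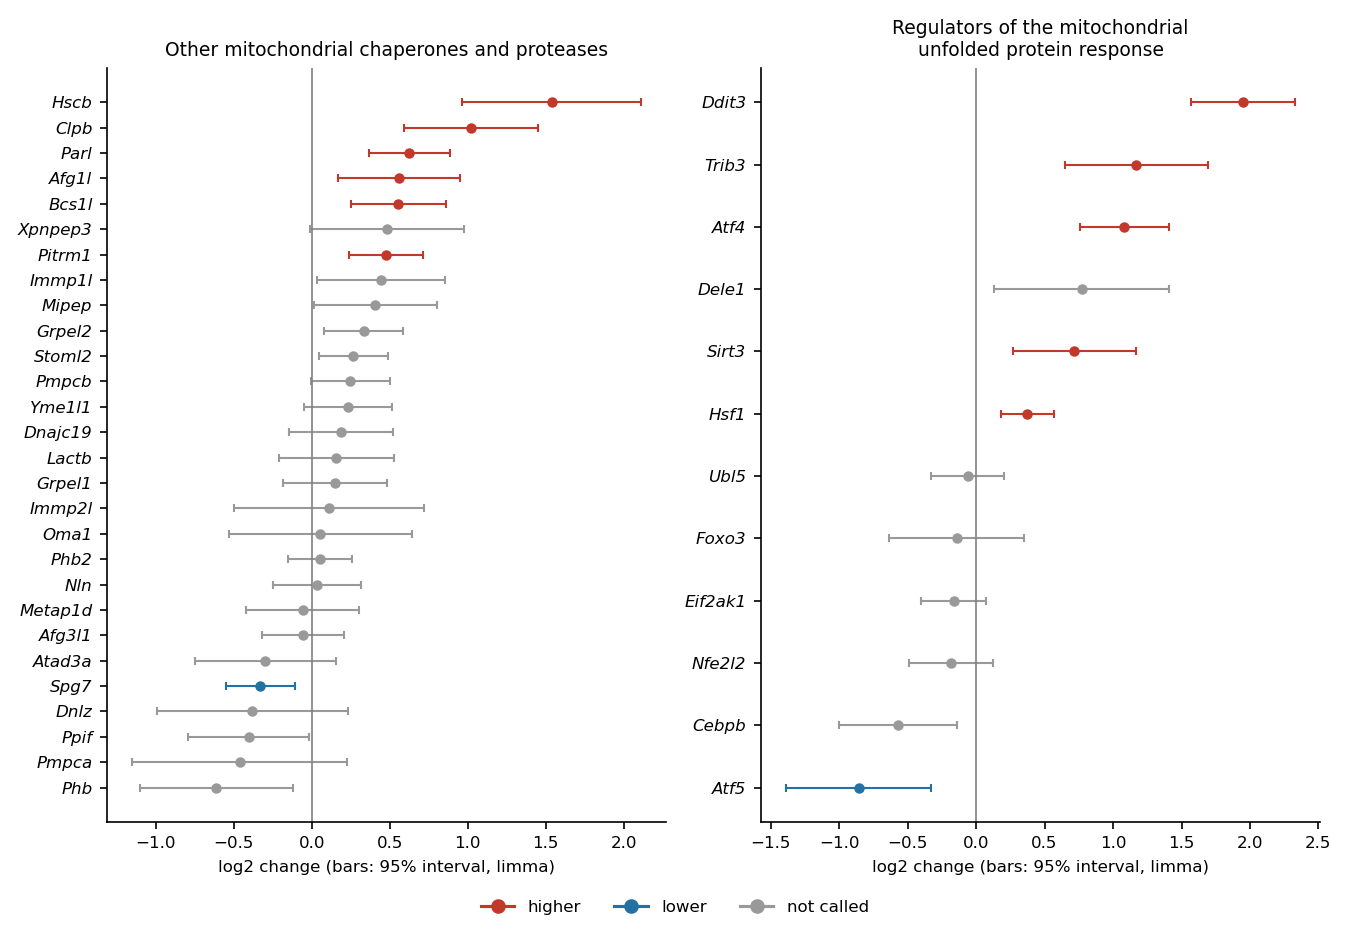
Log2 change with stiripentol over all libraries for the 28 other mitochondrial chaperones and proteases (left) and the 12 regulators (right), with bars for the 95% interval and colour for the limma call (red higher, blue lower, grey not called). Hscb (1.54) and Ddit3 (1.95) lie at the top of their panels, and Spg7 (-0.33) and Atf5 (-0.86) are the genes called lower.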

How the data were processed

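RNA of 5 control and 5 stiripentol libraries of mSCLC-2405 cells was sequenced by the authors. Their methods name Lexogen QuantSeq 3′ mRNA libraries and GENAVi for the normalization, while the labels name TruSeq total RNA libraries, and the submitters' notes name the mm10 build. The aligner and annotation are not given in the sources used here. The authors deposited 1 table of log2 CPM by gene and library, with a prior of 0.837 to 2.38 reads added in proportion to library size. The floor for a gene without reads was -4.82 log2 CPM in controls 1 to 3 and -4.74 in the other libraries. Reads were whole in 100% of the deposited values (tolerance 0.05), which gave the depths. In 14 rows a number stands for the symbol, and 42 symbols are repeated. Beside these, the authors deposited columns of their own comparison: the log2 mean of each group, the ratio and the difference of these means, a p-value, a q-value and their −log10. None of these was used. The value of 1 marker gene is not reported here.

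Groups were taken from the sample titles. The log2 CPM were tested in R 4.3.3 by limma 3.58.1 (linear fit, moderated with a trend of variance on level) over the 12306 genes whose mean was more than 0 on the log2 CPM scale, with Benjamini-Hochberg adjustment over all of them and a threshold of 0.05. The script was tested on simulated data. Depth and reads describe counting error only. Clusters were drawn within each group by average linkage on correlation, cut into 2, and matched between the groups by size. Named genes are the 10 members, at most 4 called genes in each direction of the list of other chaperones and proteases, all 12 regulators, the 3 most similar genes of Hspd1, Lonp1 and Clpp, and rows of pseudogenes with reads. Bcs1l and Pitrm1 were named outside this rule, after their values were seen. The members and lists were chosen with earlier results of these data known. Dele1 was found through its RefSeq synonym. Gene positions are from GENCODE M21 on GRCm38, and near copies were sought with blastn 2.17.0+. Python 3.11.15, numpy 2.4.6, pandas 2.3.3 and matplotlib 3.10.9 were used for the tables and plots. Alternatives changed the samples (each library left out, each cluster alone, 1 mean per group and cluster), the model (the replicate number as a block, the cluster as a term, limma voom from reads), the scaling in 2 ways, the filter in 2 ways, the pseudocount to 0.1 or 1 CPM, and the call to at least 1 log2 unit, or added the reads of copies.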

Additional observations from a re-analysis of the deposited data

Results flagged for a closer look

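Of 62 groups of 5 values examined for a library far from the others, 3 were singled out, where chance gives about 3.1. Clpp was at 5.43 log2 CPM in control 5, with the next control at 5.74. Control 5 also had 22375625 reads, with the next control at 57991647. Foxo3 was at 6.03 log2 CPM in stiripentol 1, with the next stiripentol library at 6.60.

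The effect of stiripentol differed between the library clusters in limma for 8 of the 10 mitochondrial chaperones and proteases. The difference, pair minus trio in log2 units, was 1.37 for Hspa9, 1.16 for Lonp1, 1.16 for Hspd1, 0.96 for Hspe1, 0.74 for Clpx, 0.44 for Dnaja3, 0.42 for Afg3l2 and -0.60 for Htra2. Among the other genes named, it was -1.17 for Foxo3, 0.90 for Atf5, 0.79 for Atf4, 0.71 for Dele1, 0.45 for Clpb and -0.30 for Spg7. Of all genes tested, 63.3% passed the same test. What separates the clusters is not in the labels.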

How the results depend on the processing

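With 1 mean per group and cluster, limma called 0 members, 0 genes of the list of other chaperones and proteases, 0 regulators, and 0 higher and 0 lower of all genes, with fewer values in the fit. A minimum absolute log2 change of 1 left 3 members, 2 other genes and 3 regulators, and 404 higher and 890 lower genes. The trio alone gave 17 other genes and 10 regulators, with 4637 higher and 3322 lower genes, and the pair alone gave 1 member called lower, 20 other genes, and 3158 higher and 5726 lower genes. A term for the cluster gave 15 other genes, and 2908 higher and 3336 lower genes. The replicate block gave 1020 higher and 1062 lower genes in place of 1674 and 1740, 5 members in place of 6 (Trap1 not called, adjusted p = 0.0695), 5 other genes and 4 regulators. By the deposited numbers the libraries were not paired: the deviations of same-numbered libraries correlated at -0.240 to 0.0612, 0 of 5 over 0.1. Of the 5 controls, 0 deviated most like the stiripentol library of the same number. The table printed by the study orders the controls differently: the floor of -4.74 belongs to its controls 1 and 2 and to the deposited controls 4 and 5, which form the pair with stiripentol 1 and 2. The numbers are therefore in doubt, and the block applies to the deposited ones only. Leaving out each library gave 5 to 6 members called higher and 0 lower, 5 to 8 other genes, 4 to 7 regulators, 1203 to 1706 higher and 1182 to 1807 lower genes. Among the members, the 5 named other genes and the regulators, directions turned, always for genes not called over all libraries, in the trio for Hspd1 (-0.019), Clpx (-0.027), Afg3l2 (-0.15), Htra2 (0.053) and Foxo3 (0.33), in the pair for Ubl5 (0.030), under median-of-ratios scaling for Ubl5 (0.014), and for Afg3l2 without control 4 (-0.0092), control 5 (-0.026) or stiripentol 2 (-0.016), within -0.026 to 0.059 over the libraries left out. The cause of these changes was not tested. The count of members called higher was 6 under both other scalings, both other filters, both pseudocounts, limma voom and with copies added. The 8 differences between clusters were 7 after quantile normalization and 6 with no filter.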
